A study of Pan troglodytes with 38 samples.

Results

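Glycolysis splits glucose into pyruvate in the cytoplasm, and pyruvate is then either reduced to lactate or carried into mitochondria, where the pyruvate dehydrogenase complex turns it into acetyl-CoA. Glycogen is the branched glucose store that muscle builds and breaks down on demand. The working heart burns mainly fatty acids, takes up lactate as a fuel, and relies more on glucose when oxygen is short. Many enzymes of the route exist as muscle or heart forms and as forms found in most tissues, so the balance of isoforms is a familiar property of cardiac muscle. Several of the ubiquitous or inducible members, among them HK2, SLC2A1, SLC2A3, LDHA, ENO1, PFKFB3 and SLC16A3, are textbook targets of the hypoxia-inducible transcription factor HIF-1.

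The set described here comprises 39 genes of glucose uptake, glycolysis, lactate and pyruvate handling and glycogen metabolism, chosen by name. Of these, 38 had at least 1 row among the 31373 rows of the chimpanzee gene count table, and 37 had exactly 1 row. The insulin-responsive glucose transporter gene SLC2A4 was not analysed here. PGAM2, the muscle phosphoglycerate mutase, carried 2 rows (ENSPTRG00000043134 and ENSPTRG00000051032), in which 33 and 35 of the 38 hearts were at 0 counts. Such paired rows for near-identical copies can lose reads that map to both, so PGAM2 is not given a level. PFKFB1, a regulator best known from liver, had a count of 0 in 22 hearts and reached 3.82 CPM in heart 4X0267.

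RNA-seq counts came from post-mortem hearts of 38 chimpanzees (Pan troglodytes), with 1 sample per animal. The labels place all of them in a single group of primary heart tissue and give no age, and the ages at death listed elsewhere were not used here. In the table of samples, 22 were female and 16 male, RNA of 17 hearts was extracted in 2016 in 4 batches and that of 21 hearts in 2018 in 1 batch, and 21 hearts came from the Yerkes center. That table marks all libraries of 2016 as published earlier and sequenced again, while the methods name fewer of them, so that extraction year and source of the library cannot be told apart with certainty. It also notes viral infection or exposure for some animals of 2018, and some of the animals were related to each other. Totals on orthologous exons, by which levels are scaled, ran from 14408012 to 81603350 per heart, and mitochondrially encoded genes took 17.2 to 60.1% of the gene counts. The 12 cardiomyocyte markers checked, among them MYH7, TNNT2 and TTN, were detected in all 38 hearts, with a summed level of 15028 to 150733 CPM, and none was at 0 in any heart. Heart Little_R had the lowest sum and heart 537 the next lowest, 30687 CPM. These 2 hearts stood apart in their overall expression. The levels and isoform shares below include them, and other results are also given without them where stated. In bulk tissue, fewer cells of a type and less RNA per cell cannot be told apart.

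Levels are given as CPM, the count of a gene per 1000000 reads on orthologous exons of the same heart. CPM is not corrected for gene length and is used to compare hearts, not genes. The ranges include 537 and Little_R, which set many of the lowest values. Without them the lowest PFKM level was 178.6 instead of 92.7 CPM, and the lowest PDHB level 164.0 instead of 41.2 CPM. The lowest HK2 level stayed at 0.636 CPM. The 37 genes with a single row together took 0.386 to 2.27% of the counts outside the mitochondrial genome, with a median of 1.66%. Little_R and 537 (0.536%) had the smallest shares and MD_And and 95A014 (2.26%) the largest. GAPDH, ALDOA and LDHB supplied 51.1% of those counts in the median heart.

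**Figure D1:**
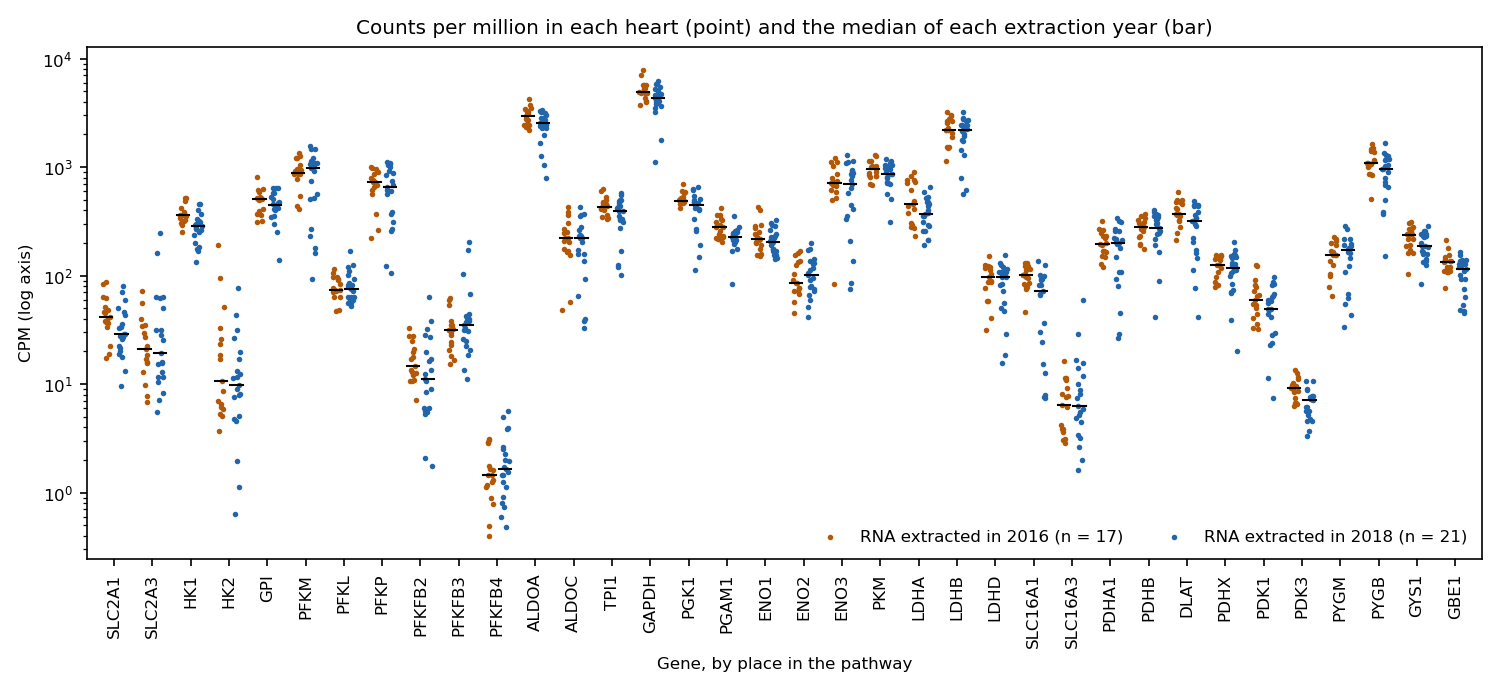
CPM of 36 genes (horizontal axis, by place in the pathway) in each of the 38 hearts on a logarithmic vertical axis, with hearts coloured by the year of RNA extraction and a bar at the median of each year. The years overlap for all 36 genes, and HK2, SLC2A3, SLC16A1, SLC16A3 and PFKFB3 are spread over a wider range than GAPDH, PKM or GYS1.

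Glucose enters cells through SLC2A family transporters and is trapped by hexokinase. SLC2A1, the widely expressed transporter GLUT1, ranged from 9.51 to 88.2 CPM (median 36.2), and SLC2A3, the high-affinity transporter GLUT3, from 5.499 to 244.8 CPM (median 20.3). The tail of SLC2A3 was formed by heart 529, the highest, and Little_R, at 160.4 CPM. HK1, the constitutive hexokinase (ENSPTRG00000002572), lay between 134.0 CPM in heart 537 and 516.9 CPM in heart 4x0519, with a median of 318.4 CPM. HK2, the inducible, insulin-responsive hexokinase of muscle (ENSPTRG00000012104), had a median of 10.3 CPM but ran from 0.636 CPM in heart 503 to 192.6 CPM in heart 570. The highest heart was therefore 303 times the lowest for HK2 and 3.86 times for HK1. GPI, which isomerises glucose 6-phosphate, covered 139.6 to 819.9 CPM (median 469.1).

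Phosphofructokinase carries out the committed step. The muscle subunit PFKM had 92.7 to 1577 CPM (median 919.4), the platelet-type subunit PFKP 106.5 to 1115 CPM (median 706.6) and the liver-type subunit PFKL 47.6 to 168.8 CPM (median 74.2). Little_R was lowest for PFKM and PFKP, whereas 537, second lowest for both, was the highest heart for PFKL. The bifunctional PFKFB enzymes make and remove fructose 2,6-bisphosphate, the main activator of phosphofructokinase. PFKFB2, the cardiac form, ranged from 1.74 to 63.0 CPM (median 13.2) and was lowest in 537, while the inducible PFKFB3 ranged from 11.1 to 202.5 CPM (median 31.9) and was highest in 529. PFKFB4 stayed between 0.400 and 5.63 CPM.

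Most enzymes of the lower part of the route spanned narrower ranges. Aldolase ALDOA had 798.7 to 4251 CPM (median 2739), GAPDH 1116 to 7817 CPM (median 4771), and PKM, the pyruvate kinase of muscle and most other tissues, 315.0 to 1287 CPM (median 899.9). TPI1 (median 418.8 CPM), PGK1 (475.5 CPM) and PGAM1 (241.7 CPM) each spanned a 5.05- to 6.23-fold range, with the lowest value in 537, 4X0354 and Little_R, respectively. These genes, with ENO1, LDHA and LDHB, have processed pseudogenes in primate genomes, and how reads shared with those copies were counted adds uncertainty to their levels. The neural-type aldolase ALDOC was less even, from 33.04 to 426.4 CPM. Among the enolases, ENO1, present in most tissues, held to 141.0 to 425.8 CPM (median 210.6), while ENO3, the muscle enolase, covered 74.9 to 1295 CPM (median 704.6). ENO2, best known from neurons, had 41.9 to 198.0 CPM.

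Lactate dehydrogenase is built from LDHA subunits, typical of skeletal muscle, and LDHB subunits, typical of heart. LDHB ranged from 563.4 to 3236 CPM (median 2209) and LDHA from 192.8 to 895.0 CPM (median 407.0). LDHD, which oxidises D-lactate in mitochondria, had 15.5 to 155.0 CPM. The lactate transporter SLC16A1 (MCT1) was at 7.49 CPM in heart 537 and at 135.5 CPM in heart 503, with a median of 88.2 CPM. SLC16A3 (MCT4), the exporter of glycolytic cells, had a median of 6.39 CPM and reached 59.3 CPM in heart 529. Heart 529, the highest for SLC16A3, and 537, the next highest, were among the lowest for SLC16A1, while heart 4x0519 was above the median for both (131.4 CPM of SLC16A1 and 11.4 CPM of SLC16A3).

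The 4 members of the pyruvate dehydrogenase complex and the kinase PDK1 were lowest or second lowest in both hearts that stood apart. The kinase genes PDK2 and PDK4 were not members of the set, and their levels are not given here. PDHA1 and PDHB, the subunits of the E1 enzyme, had medians of 199.1 and 281.1 CPM, and DLAT (E2) and PDHX (its binding partner) medians of 356.1 and 124.8 CPM. Little_R was the lowest of the 38 hearts for all 4, with 26.7, 41.2, 41.6 and 20.3 CPM. PDK1, a kinase that switches the complex off, spanned 7.43 to 124.6 CPM (median 55.6), also lowest in Little_R. PDK3 spanned 3.33 to 13.5 CPM (median 7.57), was lowest in 537 and ranked 4 from the lowest in Little_R. Of the glycogen genes, muscle phosphorylase PYGM had 33.7 to 289.7 CPM (median 164.3) and brain-type phosphorylase PYGB 150.6 to 1655 CPM (median 1050). Glycogen synthase GYS1 (84.2 to 309.7 CPM) and branching enzyme GBE1 (44.97 to 214.9 CPM) spanned 3.68- and 4.78-fold ranges, against 10.99-fold for PYGB. Without 537 and Little_R the ranges were 2.97-fold for GYS1, 4.57-fold for GBE1 and 4.46-fold for PYGB, so that GBE1 was then no steadier than PYGB.

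Lengths were at hand for 12 of the genes, through their rows of orthologous exons on Pan_tro_3.0, and for these the levels were compared between genes as CPM per kilobase of exon (RPKM). PFKP (chromosome 10, 3181555 to 3262222, plus strand, 28 exons) came first with a median of 151.7 RPKM, ahead of PFKM (chromosome 12, 41814891 to 41856235, minus strand, 30 exons) with 141.5 RPKM. PFKP exceeded PFKM in 27 of 38 hearts, but their means, 147.2 ± 62.1 and 132.4 ± 58.9 RPKM (SD, n = 38), differed by less than the SD. DLAT (77.8 RPKM), ENO1 (55.8 RPKM), HK1 (53.9 RPKM), SLC16A1 (43.02 RPKM) and PDHX (36.4 RPKM) followed, and the means of each neighbouring pair again lay within the larger SD. This SD is between hearts and leaves out that both genes were measured in the same heart. Heart by heart, PFKM exceeded DLAT in 37 of 38, DLAT exceeded ENO1 in 27 and ENO1 exceeded HK1 in 19. HK1 exceeded SLC16A1 in 32 hearts and SLC16A1 exceeded PDHX in 29. PGAM1 (23.6 RPKM) was separated by more than the larger SD from PDHX above it and from SLC2A1 (8.04 RPKM) below it. This place of PGAM1 is uncertain, because its exon row held a median of only 0.0982 of the reads of its gene row. PFKFB2, PFKFB3 and SLC2A3, at 6.65, 5.496 and 3.52 RPKM, closed the order. From SLC2A1 down neighbours lay within the larger SD, and the upper gene of each pair was higher in 20, 25 and 29 of 38 hearts.

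The orthologous exon rows also gave a second count of the same genes. For HK1, PFKM, PFKP, ENO1, SLC2A1, SLC2A3, PFKFB3, DLAT and PDHX the counts of both tables were nearly the same, with a correlation over hearts of the log2 values between 0.997 and 0.9999. PGAM1 was different. Its orthologous exons (chromosome 10, 98778772 to 98780541, 3 exons) held a median of 0.0982 of the reads of the gene row, and the correlation was 0.63. For SLC16A1 (chromosome 1, 123116276 to 123160785) they held 2.55 times as many reads, with a correlation of 0.86, and for PFKFB2 1.91 times, with a correlation of 0.88. Results on these 3 genes, their places in the order above included, therefore depend on which gene model was counted. Results below use the gene rows.

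The hearts differed as wholes along the set. For each heart, the log2 difference of every gene from its own median over hearts was taken, and the median of these differences was computed over the 35 genes that reached 6 CPM in some heart. It was -1.81 in Little_R, -1.44 in 537, -0.93 in 4X0354, -0.65 in 558 and -0.48 in 529, while the same median over all genes lay between 0.01 and 0.36 in these 5 hearts. At the other end were MD_And with 0.48, 95A014 with 0.40 and 4X0212 with 0.33. Little_R was the lowest heart for 17 of the 35 genes and 537 for 8. The low hearts were all extracted in 2018, and their mitochondrial shares of 42.99 to 60.1% exceeded the highest share of 2016, 34.98%. Their cardiomyocyte marker sums of 15028 to 74655 CPM were under the median of 111506 CPM. The next lowest heart, 4X0339, also of 2018, had a median difference of -0.41 and a mitochondrial share of 51.7%, but a cardiomyocyte sum of 121497 CPM, above that median. Heart 495, of 2018, came after it with -0.33, a mitochondrial share of 45.3% and a cardiomyocyte sum of 38261 CPM. Hearts 549, 570 and 4x0025, of 2016, followed with -0.26, -0.21 and -0.19 and sums of 82012, 72504 and 67425 CPM, also under that median. Heart 4X0357, with a mitochondrial share of 40.04%, had a median difference of 0.19 and a cardiomyocyte sum of 120794 CPM. The part of these measures in the low levels was not tested.

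**Figure D2:**
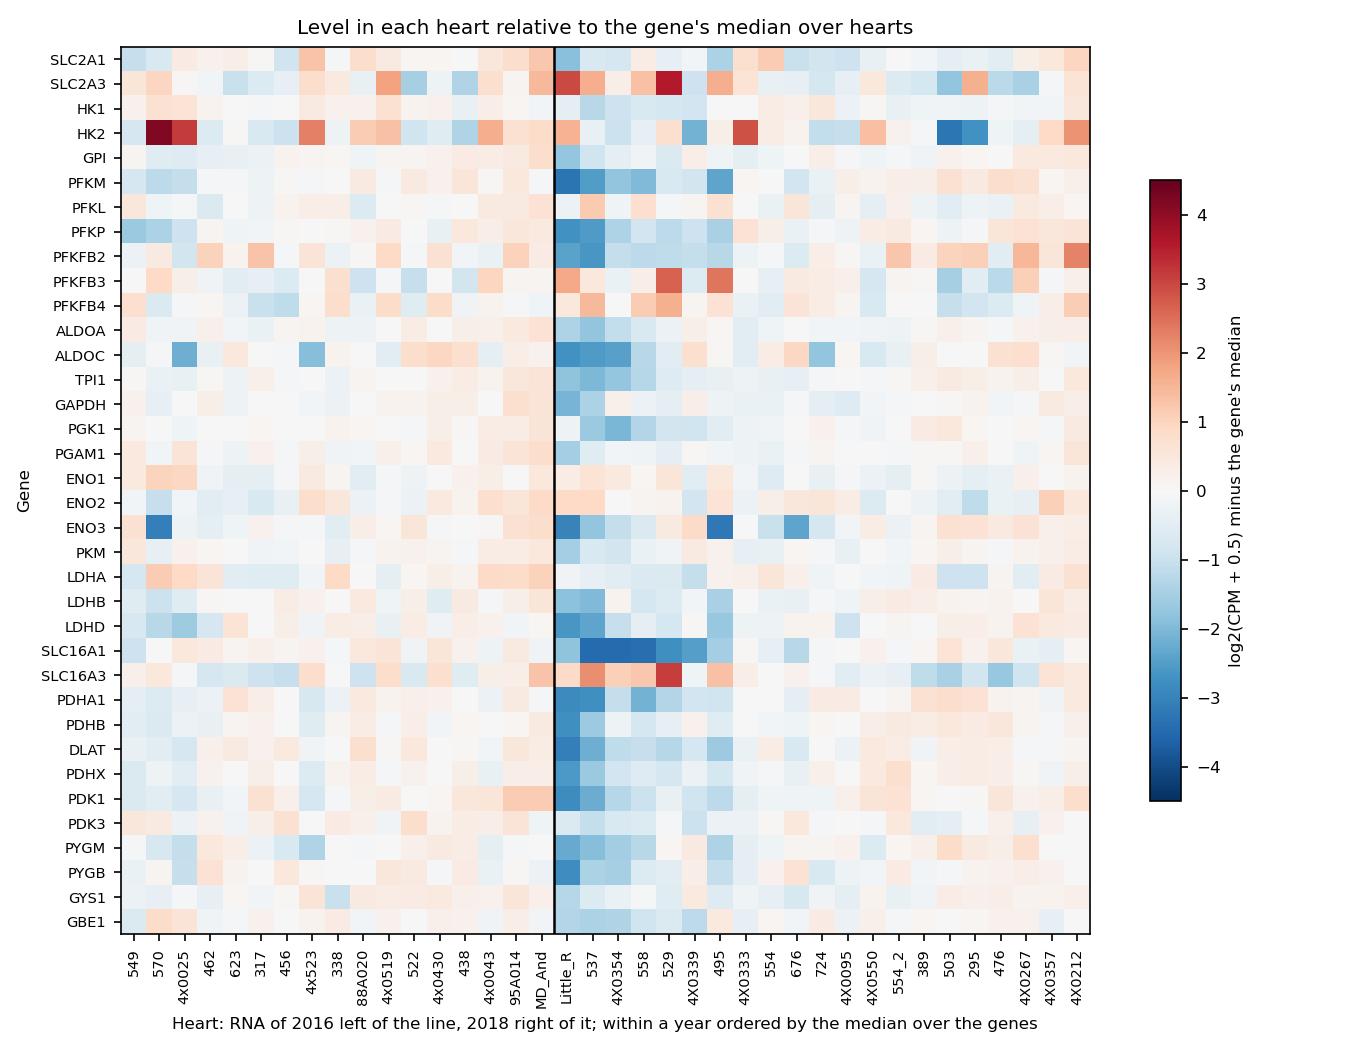
Difference of log2(CPM + 0.5) from each gene's median over 38 hearts, for 36 genes (rows, by place in the pathway) and 38 hearts (columns, those of 2016 left of the line and those of 2018 right of it). The blue columns of Little_R, 537, 4X0354 and 558 are broken by red cells for SLC2A3 in Little_R and for SLC16A3 in 537, and HK2 is the row with the strongest contrast between single hearts.

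The low levels were not uniform within those hearts, as ratios on the log2(CPM + 0.5) scale show. In Little_R, PFKM stood at 0.101, DLAT at 0.118, ENO3 at 0.123 and PDHA1 at 0.136 of their medians, whereas LDHA stood at 0.901 and SLC2A3 at 7.76 times its median. In 537, SLC16A1 stood at 0.0902 and PDHA1 at 0.148 of the median, but PFKL at 2.27, SLC2A3 at 3.09 and SLC16A3 at 4.27 times it. PFKM, PDHA1 and DLAT were thus among the most reduced genes in these hearts, and ENO1, ENO2, PFKFB3, SLC2A3 and SLC16A3 were above their medians in both. Fibroblast markers (8 of 8 measured) summed to 11524 CPM in Little_R against a median of 2042 CPM, and endothelial markers (7 of 7) to 5027 CPM in 537 against 1424 CPM, each the highest value of the 38 hearts. Whether other cell types account for the pattern was not tested.

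Other hearts stood out for a few genes. Heart 570, of 2016, was the highest of all for HK2, LDHA (895.0 CPM), ENO1 (425.8 CPM) and GBE1 (214.9 CPM) and second highest for HK1 (516.3 CPM), yet second lowest for ENO3, at 83.0 CPM. Heart 4x0025, also of 2016, was second highest for HK2 (95.6 CPM), ENO1 (406.0 CPM) and GBE1 (180.6 CPM) and ranked 3 from the top for HK1 (488.0 CPM) and LDHA (758.3 CPM). Heart 503, of 2018, was lowest for HK2, SLC2A3 (5.499 CPM) and PFKFB3 (11.1 CPM) and second lowest for LDHA (210.9 CPM) and SLC16A3 (2.001 CPM). The same heart was highest for SLC16A1, PDHA1 (341.0 CPM) and PYGM (289.7 CPM), and had the highest cardiomyocyte marker sum. Heart 529 led for SLC2A3, SLC16A3 and PFKFB3, at 11.8, 8.68 and 6.26 times the respective median, and for PFKFB4, and it also had the highest summed erythrocyte markers (8945 CPM, 5 of 6 measured) and T and NK cell markers (338.0 CPM, 6 of 6). Heart MD_And was highest for the glycolytic enzymes GPI, ALDOA, TPI1, PGK1 and PGAM1, and also for LDHB.

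Variation between hearts was then measured for each gene as the negative binomial overdispersion, the variance beyond counting noise, and set against the level of the gene through a LOESS trend of ln overdispersion fitted over 13121 genes. A positive residual from this trend means that a gene varied more between hearts than is usual for its level. Of the 35 genes with enough reads, 25 lay above the trend, against 44.9% of all genes, and their median residual was 0.44, against -0.12 for all genes. Leaving out each heart in turn moved the median between 0.37 and 0.45 (standard error 0.14), and without 537 and Little_R it was 0.58. It was 0.56 within the hearts of 2018 and 0.28 within those of 2016. These figures are descriptions of a list chosen by name, with earlier results of these data known, and no test was made of them.

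The most variable genes were HK2 with a residual of 2.22 ± 0.37 (SE by leaving out each heart in turn, 38 hearts), SLC2A3 with 1.97 ± 0.37 and SLC16A1 with 1.51 ± 0.30. They stood at the 98.5th, 97.5th and 94.0th percentile of all genes. PFKFB3 (1.44), ALDOC (1.31), ENO3 (1.28), PFKFB2 (1.15), SLC16A3 (1.07) and PFKM (1.07) came next, so that transporters, the inducible hexokinase and the regulators of phosphofructokinase filled most of the upper end. Without 537 and Little_R the residual of HK2 was 2.43 and that of SLC2A3 2.004. At the lower end were PDK3 with -0.83 ± 0.23, PKM with -0.54 ± 0.43, GAPDH with -0.49 ± 0.52 and ALDOA with -0.36 ± 0.41, and the last 3 lay within 2 standard errors of the trend. The residuals of GAPDH and PKM were -0.97 and -0.73 without 537 and Little_R. Within the complex, PDHB changed from 0.30 with all hearts to -0.36 without these 2, and PDHX from 0.37 to -0.10.

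**Figure D3:**
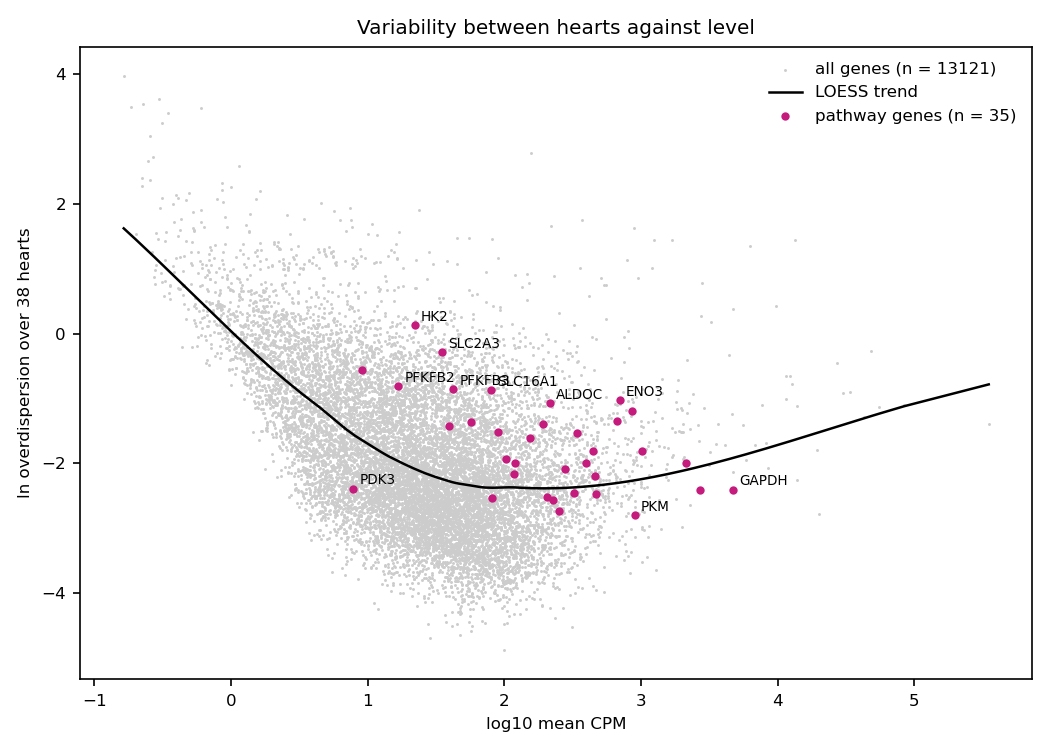
Natural logarithm of the overdispersion over 38 hearts (vertical axis) against log10 mean CPM (horizontal axis) for 13121 genes (grey), the LOESS trend (line) and the 35 pathway genes (pink). HK2 and SLC2A3 lie far above the line, and PDK3, PKM and GAPDH lie below it.

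The balance of isoforms was followed as the share of a chosen form, mostly the muscle or heart form, in the summed counts of the members compared. This share does not depend on the scaling of a library. Isoforms outside the member list, such as PYGL, PDK2 and PDK4, were left out of the sums. As these shares are not corrected for length, they are compared between hearts. HK2 held a median of 3.35% of the HK1 and HK2 counts, from 0.223% in heart 503 to 27.2% in heart 570. PFKM held 52.7% of the phosphofructokinase counts, from 31.4% in heart 558 to 68.8% in heart 503. ENO3 held 69.7% of the enolase counts in the median heart but 14.7% in heart 495, 14.99% in heart 570 and 16.6% in Little_R, and 86.8% in heart 4X0339. Hearts 676 (28.6%) and 537 (29.3%) were also far under the median.

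LDHB held 84.8% of the LDHA and LDHB counts, from 56.0% in heart 570 to 92.1% in heart 503. PYGM held 13.2% of the PYGM and PYGB counts, from 5.58 to 22.1%, and ALDOA 93.2% of the ALDOA and ALDOC counts, from 86.6 to 98.2%. SLC16A1 held 92.6% of the counts of both lactate transporters in the median heart and 17.5% in heart 529, 20.6% in 537, 33.9% in 558 and 35.03% in 4X0354. PDK1 held 87.8% of the PDK1 and PDK3 counts, with the lowest share, 61.8%, in Little_R. Without 537 and Little_R the lowest PDK1 share was 76.1%, in heart 549, and the lowest shares of the other families were unchanged. Heart 503 had the highest share of PFKM, LDHB and PYGM and the lowest share of HK2, while heart 570 had the highest share of HK2 and the lowest of LDHB.

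Between extraction years none of the 8 families differed in its mean log2 ratio (permutation test, two-sided, 100000 resamples, Benjamini-Hochberg over 8 families), and none reached an unadjusted p under 0.05. The median share of ENO3 was 71.5% in 2016 and 69.2% in 2018, and that of LDHB 85.8 and 84.8%. The widest gap was that of SLC16A1 to SLC16A3, whose mean log2 ratio was 3.96 ± 0.91 in 2016 (SD, n = 17) and 2.67 ± 2.53 in 2018 (SD, n = 21). The difference of -1.30 (SE 0.59) had a permutation p of 0.0502 and an adjusted p of 0.341, and was -0.97 without 537 and Little_R. The lowest share of SLC16A1 in 2016 was 82.6%, so that the hearts under this value were all of 2018, but the shares of both years overlapped.

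Pairs of isoforms were compared over the 38 hearts on the log2(CPM + 0.5) scale, with Pearson's r, Spearman's rho and permutation p values adjusted over 8 pairs. PFKM and PFKP were the pair most closely related (r = 0.89, rho = 0.73, adjusted permutation p 4e-05 and 8e-05). The unadjusted p of this r, 1e-05, is the smallest that 100000 resamples can give. Without 537 and Little_R, the hearts farthest from the median of PFKM, r was 0.81, and it was 0.84 within 2016 and 0.91 within 2018. PFKM and PFKL were not related in the same way (r = -0.34, adjusted permutation p = 0.0409, rho = -0.20, adjusted permutation p = 0.262). Within years r was -0.45 in 2018 and 0.01 in 2016, neither of which passed (adjusted permutation p 0.0507 and 0.973), and the difference between years was not tested. Without 537 and Little_R r was -0.35 (unadjusted permutation p 0.0388 and 0.0378 in separate resamplings). The adjusted permutation p was 0.0517 where each pair left out its own farthest hearts. It was 0.0469 where every pair left out 537 and Little_R. Under trimmed-mean (TMM) scaling r was -0.07.

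The phosphorylases PYGM and PYGB varied together (r = 0.77, rho = 0.54, adjusted permutation p 4e-05 and 0.00188), as did ALDOA and ALDOC (r = 0.68, rho = 0.48, adjusted permutation p 6e-05 and 0.00536). Without the 2 hearts farthest on the x axis, 537 and Little_R in both cases, r was 0.62 and 0.49. Within years the relations were strong in 2018 (r = 0.86 for both pairs) and did not pass in 2016, with r = 0.44 for the phosphorylases and 0.14 for the aldolases (adjusted permutation p 0.156 and 0.810). HK1 and HK2 were related the other way about, with r = 0.46 and rho = 0.44 over all hearts (adjusted permutation p 0.00582 and 0.0101), 0.77 within 2016 (adjusted permutation p 0.00140) and 0.27 within 2018 (adjusted permutation p 0.275). Without 4X0354 and 537, the hearts farthest in HK1, r was 0.48.

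The lactate transporters moved in opposite directions. Over all hearts SLC16A1 and SLC16A3 had r = -0.65 and rho = -0.52 (adjusted permutation p 5.33e-05 and 0.00219), and r was -0.58 without 4X0354 and 537. Within 2018 r was -0.78 (adjusted permutation p 2.67e-05), and the relation did not hold within 2016, where r was -0.10 (adjusted permutation p 0.810). The hearts lowest for SLC16A1 were 537, 4X0354 (7.62 CPM), 558 (8.01 CPM), 529 (12.6 CPM) and 4X0339 (15.3 CPM), and their mitochondrial shares were 60.1, 42.99, 53.9, 52.7 and 51.7%. In 2016 the lowest SLC16A1 level was 46.3 CPM, in heart 549. The difference in r between the years was not tested.

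ENO1 and ENO3 had r = -0.40 (adjusted permutation p 0.0189) and rho = -0.24 (adjusted permutation p 0.205). Without hearts 4x0025 and 570, the farthest in ENO1, r was -0.29 and no longer passed (adjusted permutation p 0.0948), and without 537 and Little_R it was -0.34 (adjusted permutation p 0.0469). Within years r was -0.46 in 2016 and -0.46 in 2018 (adjusted permutation p 0.156 and 0.0507), and under TMM scaling it was -0.17. LDHA and LDHB showed no detectable relation, with r = 0.09 and rho = 0.13 (adjusted permutation p 0.598 and 0.432). Their r was 0.18 without 4X0339 and 570, -0.11 within 2016 and 0.11 within 2018. LDHA was highest in heart 570 and LDHB lowest in heart 537.

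**Figure D4:**
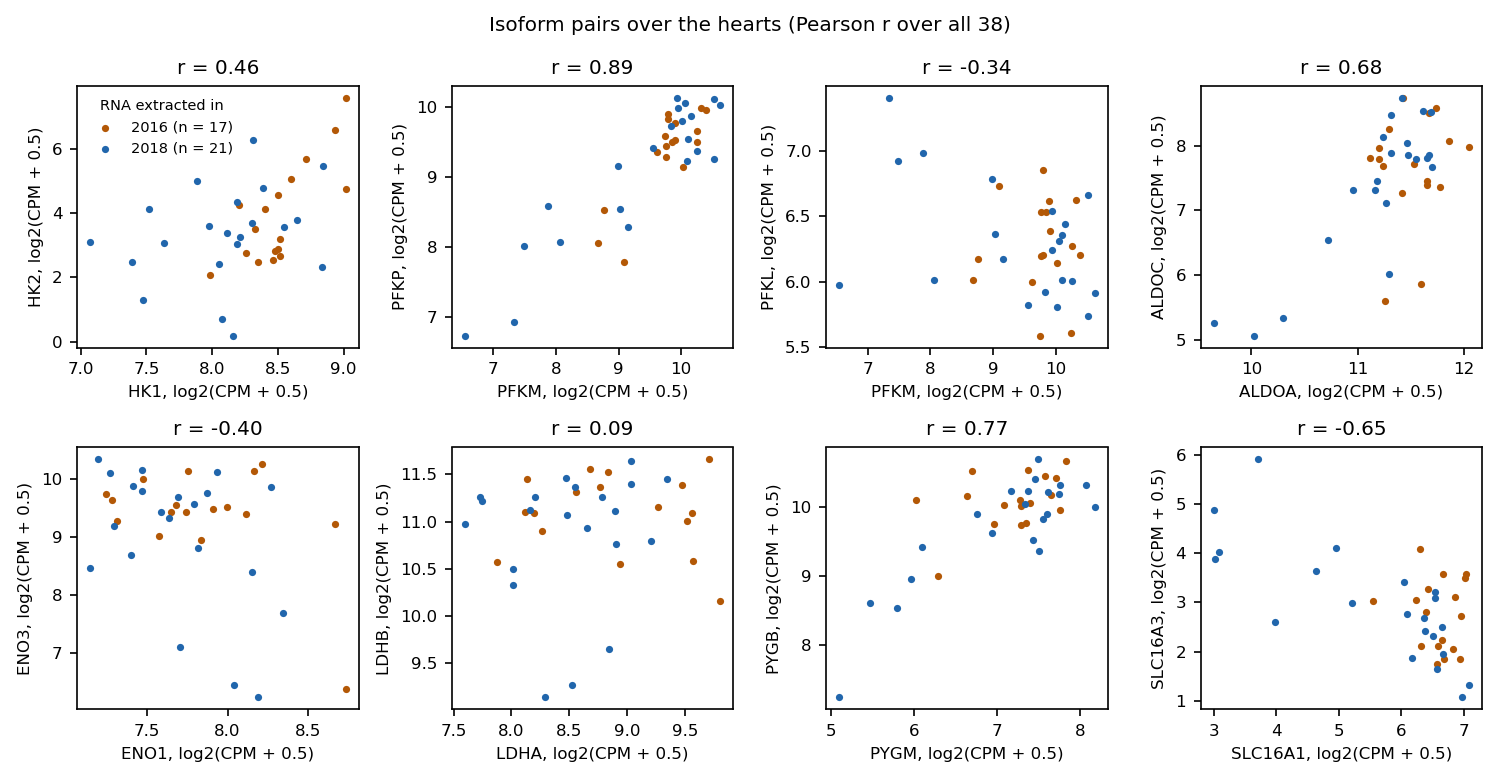
Levels of 8 isoform pairs in 38 hearts, each axis being log2(CPM + 0.5) of the gene named on it, with hearts coloured by extraction year and Pearson's r over all hearts above each panel. PFKM and PFKP fall along a rising line in both years, whereas the low SLC16A1 values paired with high SLC16A3 are hearts of 2018.

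The labels set up no biological comparison, and extraction year was therefore tested as a technical factor (edgeR quasi-likelihood test with sex as a covariate, Benjamini-Hochberg adjustment over 15790 genes, threshold 0.05). Of 36 genes tested, 3 were called, all lower in 2018, beside 16.1% of all genes called in either direction, 4.82% lower and 11.2% higher. The 3 genes were the hexokinase HK1, the lactate dehydrogenase subunit LDHA and the kinase PDK3. HK1 fell from a median of 361.5 CPM in 2016 (253.1 to 516.9) to 284.9 CPM in 2018 (134.0 to 457.9), a log2 fold change of -0.42 (SE 0.13, adjusted p = 0.0280). LDHA fell from 455.6 CPM (233.9 to 895.0) to 366.8 CPM (192.8 to 649.3), a log2 fold change of -0.48 (SE 0.17, adjusted p = 0.0465). PDK3 fell from 9.28 CPM (6.26 to 13.5) to 7.08 CPM (3.33 to 10.7), a log2 fold change of -0.51 (SE 0.15, adjusted p = 0.0150). The ranges of the years overlapped for all 3.

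Among the 36 genes, 32 had a negative log2 fold change and the median was -0.20, where the median over all genes was -0.01. The 4 with a positive value were SLC2A3 (0.59, SE 0.38), PFKFB3 (0.51, SE 0.27), SLC16A3 (0.42, SE 0.31) and PFKFB4 (0.27, SE 0.27), and none of them passed. Without 537 and Little_R the median was -0.08, and HK1 and PDK3 were called (log2 fold change -0.34 and -0.42) while LDHA was not (-0.43, adjusted p = 0.0902). In that setting 13.4% of all genes were called. Over all alternatives the adjusted p from edgeR or DESeq2 ran from 0.0340 to 0.737 for LDHA, from 0.0165 to 0.531 for HK1 and from 0.00639 to 0.204 for PDK3, the highest being those of the Yerkes hearts. Within the hearts of the Yerkes center, 9 of 2016 and 12 of 2018, edgeR called none of the 36 genes, beside 2.08% of all genes. There 1 member, PDK3, had an unadjusted p under 0.05, with a log2 fold change of -0.50 (SE 0.20, adjusted p = 0.204). The log2 fold changes of HK1 and LDHA there were -0.27 (SE 0.19) and -0.18 (SE 0.22). DESeq2, run on all hearts, called 3 members, all lower in 2018, beside 14.7% of all genes.

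The marker sums did not all stay level between years. The cardiomyocyte sum had medians of 110893 CPM in 2016 and 112220 CPM in 2018, and its range reached down to 67425 and 15028 CPM, respectively. Macrophage markers (7 of 7 measured) had medians of 199.6 and 82.8 CPM (85.6 to 877.3 and 34.03 to 389.7), and erythrocyte markers medians of 130.5 and 375.4 CPM (0.907 to 2335 and 13.6 to 8945). Adipocyte markers (6 of 6) had medians of 481.0 and 748.4 CPM, with ADIPOQ and LEP at 0 in some hearts. The part of these cell types in the called genes was not tested.

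**Figure D5:**
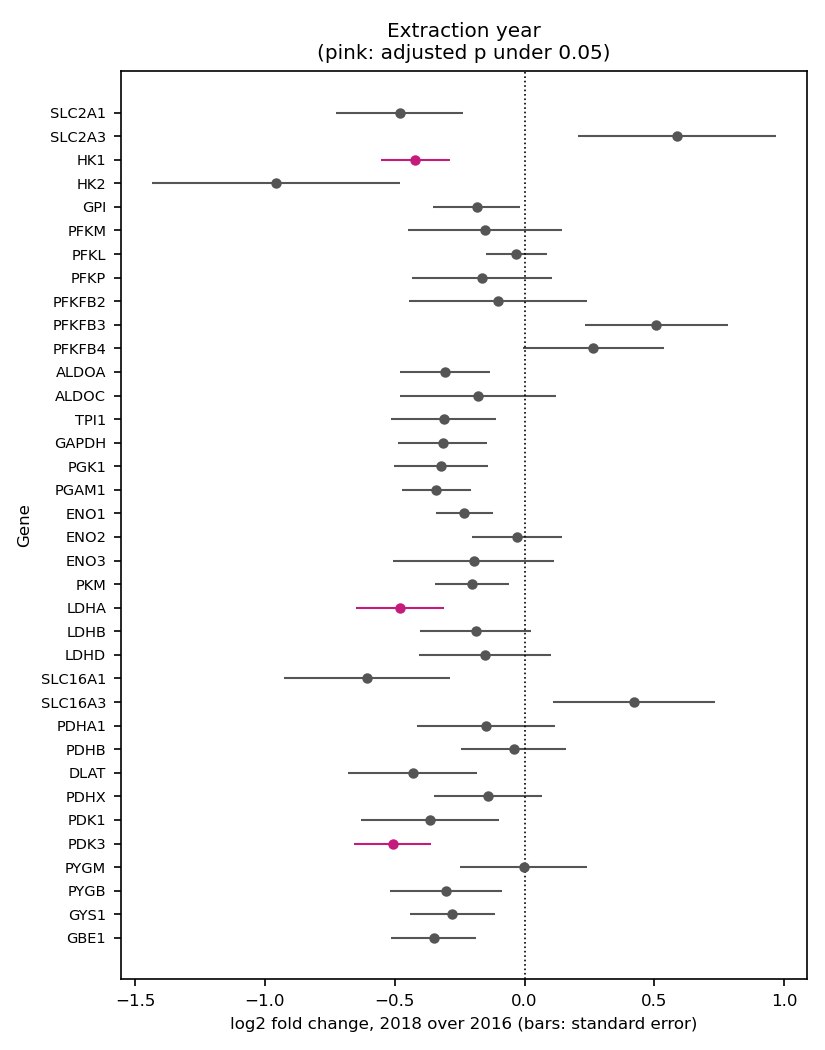
Log2 fold change of 36 genes between RNA extracted in 2018 (n = 21) and in 2016 (n = 17) from edgeR's quasi-likelihood fit, with bars of 1 standard error, and genes with an adjusted p under 0.05 in pink. HK1, LDHA and PDK3 are called and lie left of 0, and SLC2A3, PFKFB3, SLC16A3 and PFKFB4 are the points to the right.

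A further 61 genes of the same pathways were listed, of which 55 were tested and 3 called by edgeR, all higher in 2018, beside the 16.1% of all genes called in either direction and the 11.2% called higher. DESeq2 called 6 of these genes (5 higher, 1 lower), edgeR with RIN as a covariate 3 (2 higher, 1 lower), and edgeR within the Yerkes hearts 0 of 55. The shares of all genes called in these settings were 14.7, 15.1 and 2.08%, respectively. HK3, a hexokinase best known from white blood cells, had a median of 27.4 CPM in 2016 (8.27 to 83.9) and 62.9 CPM in 2018 (13.8 to 631.5), a log2 fold change of 1.67 (SE 0.37, adjusted p = 0.00170). Within the Yerkes hearts the fold change was 1.63 and edgeR did not call it (SE 0.56, adjusted p = 0.136). Of 7 neutrophil markers 6 were measured, with S100A12 and CXCR2 at 0 in some hearts. Their sum had medians of 43.8 CPM in 2016 (8.07 to 713.6) and 35.2 CPM in 2018 (4.49 to 302.8). The T and NK cell markers (6 of 6) had medians of 22.5 and 28.5 CPM. Those of macrophages (7 of 7) had medians of 199.6 and 82.8 CPM, lower in 2018. The part of white blood cells in the HK3 difference was not tested. PPP1R3E, which targets protein phosphatase 1 to glycogen, had medians of 4.92 and 7.21 CPM (log2 fold change 0.51, SE 0.15, adjusted p = 0.0179), and was not called within the Yerkes hearts (0.54, SE 0.19, adjusted p = 0.148). PHKG2, a catalytic subunit of phosphorylase kinase, had medians of 17.7 and 22.5 CPM (log2 fold change 0.32, SE 0.11, adjusted p = 0.0494), and was not called without 537 and Little_R (0.33, adjusted p = 0.0743, with 0.0304 to 0.434 over all edgeR and DESeq2 alternatives).

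RNA integrity (RIN), tested as a slope with extraction year and sex in the edgeR model, called none of the 36 genes and 0% of the 16462 genes tested. At an unadjusted p under 0.05 there were 4 of the 36, namely PKM, GPI, GAPDH and ALDOA, with log2 changes of -0.12 to -0.14 per RIN unit (SE 0.04 to 0.06) and adjusted p of 0.220 to 0.284. DESeq2 called none of these genes for RIN, beside 0.65% of all genes, and 5 had an unadjusted p under 0.05. The 4 genes named share the direction, lower where RIN was higher, and none passed the test.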

How the data were processed

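Post-mortem hearts of 38 chimpanzees were measured by RNA-seq, and per the submitters' processing notes the authors aligned reads with STAR (2.6.1b). Per the study's methods, the deposited counts by chimpanzee gene came from STAR's own gene counting with Ensembl annotation of Pan_tro_3.0, and those by orthologous exons from featureCounts (1.6.3). Human columns and 1 chimpanzee column were not analysed here (52 columns over all tables). The genes and lists were chosen with earlier results of these data known, and all members are named, together with the 5 other pathway genes with the smallest adjusted p in each direction past the threshold. From the counts, CPM used the orthologous exon total and a pseudocount of 0.5. Extraction year, sex, RIN and center came from the study's sample table. Year and RIN were tested with edgeR (4.0.16) on TMM-scaled counts after filterByExpr, with DESeq2 (1.42.0) as an alternative. The standard error is the log2 fold change over the root of the test statistic. Overdispersion was fitted by maximum likelihood for genes reaching 6 CPM in some heart (LOESS degree 1, span 0.75). Animals are the replicates, and depth (14408012 to 81603350 reads on orthologous exons) limits genes of a few CPM. Scripts were tested on simulated data. Whether counting used strand is not given in the sources used here.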

Additional observations from a re-analysis of the deposited data

How the results depend on the processing

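The 3 members called by extraction year, beside 16.1% of all genes, were 1 without a filter on low counts (13.8% of all genes). They were 0 within the Yerkes hearts (2.08%) and 0 at a threshold of 0.01 (7.97%). Under the other 6 alternatives they were 2 or 3, beside 13.4 to 16.3% of all genes. No member was called for RIN under any of the 5 alternatives, beside 0 to 0.65% of all genes, and no isoform family by year under any of 3. The median residual dispersion, 0.44, was 0.58 without 537 and Little_R and 0.28 in the earlier year alone. Of 8 isoform pairs, 7 passed by Pearson's r with all hearts, 4 within the later year and 2 within the earlier. Under TMM scaling 5 passed, and 5 without the 2 hearts farthest on the x axis. Of those 7, PFKM with PFKL and ENO1 with ENO3 did not pass by Spearman's rho (adjusted permutation p 0.262 and 0.205). Pairs of unrelated genes were not examined, so the share of such pairs that would pass is unknown. Leaving 537 and Little_R out of the levels, chosen after seeing the data, moved the median over members of the median level from 207.8 to 207.0 CPM. Such a median can hardly move when 2 hearts are left out, so it does not speak to the ranges. The lowest values of many members moved more, that of PFKM from 92.7 to 178.6 CPM and that of PDHB from 41.2 to 164.0 CPM. Differences that changed sign were those of ALDOA to ALDOC (0.18) and LDHB to LDHA (-0.051) within the Yerkes hearts, and the r of PFKM with PFKL (0.0090) and LDHA with LDHB (-0.11) within the earlier year, and none of these passed a test there. The cause was not tested, and the subsets hold fewer hearts. No paired analysis was possible because the labels give a single group.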
